A study of Homo sapiens with 2 samples.

Results

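The membrane skeleton of the red cell was followed through 8 genes in K562, a human erythroleukemia line that carries the BCR-ABL1 fusion. The genes were SLC4A1, EPB42, ANK1, SPTB, EPB41, GYPC, ADD2 and TMOD1. They were matched by symbol in the deposited comparison and joined by Entrez gene ID to the count files, which hold 25702 genes. All 8 were found without the need of an alias. A culture of asynchronous cells received 1 µM cabozantinib (XL184), which blocks several receptor tyrosine kinases including MET and AXL, for 48 h. The control culture received the vehicle DMSO for the same time. Total RNA was sequenced from strand-specific libraries, with 1 library per group. No test between the conditions was therefore possible, no p-value is given, and every interval below covers counting error only. The cell line is labelled as erythroid leukemia from bone marrow, and it is a single line in culture, not a red cell precursor.

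Beneath the red cell membrane, spectrin tetramers form a lattice that gives the cell its elasticity. The lattice is held to the lipid bilayer at a pair of sites. At the first, ankyrin and the EPB42 protein tie beta spectrin to band 3, the chloride and bicarbonate exchanger that SLC4A1 encodes. At the second, the EPB41 protein joins spectrin to short actin filaments and to glycophorin C, while adducin and tropomodulin cap the filament ends. Inherited defects of band 3, ankyrin, beta spectrin and the EPB42 protein are known causes of hereditary spherocytosis, and defects of the EPB41 protein of elliptocytosis.

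Of the 8 genes, 6 were higher with cabozantinib and 0 lower. A call needed a ratio of 1.5-fold or more and an exact 95% interval of the ratio of the counts that left out no change. By this rule 8.15% of the 12536 measured genes were higher and 12.3% lower. Measured means at least 1 CPM, counts for each 1e6 scaled counts, in at least 1 library. The members' median log2 ratio was 0.85, against 0.01 over all measured genes. At 2-fold, 3 of the 8 were higher and 0 lower, where the shares over all measured genes were 2.71% higher and 5.76% lower. The 6 higher genes were SLC4A1, EPB42, ADD2, SPTB, TMOD1 and ANK1, and the other members were EPB41 and GYPC. In a bulk sample, more cells that express a gene and more RNA per cell cannot be told apart.

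Promoter sequences were set side by side because members differed in response while serving the same structure. Windows of 300 bases, 250 before to 50 after an annotated start, were read from the RefSeq table (GRCh38.p14) for 6 of the 8 members. No window of SLC4A1 or ANK1 was read, so their promoters are not described. Shown 5′ to 3′ on the gene's strand are the windows of EPB42 (chr15:43220969-43221268, minus strand), of the upstream start of SPTB (chr14:64879858-64880157, minus strand) and of GYPC (chr2:126655908-126656207, plus strand), the member with the smallest ratio. Capitals mark AGATAA, a form of the site read by GATA factors, and CACCC, the core of sites read by KLF factors, each searched on both strands. On the opposite strand CACCC reads GGGTG.
EPB42: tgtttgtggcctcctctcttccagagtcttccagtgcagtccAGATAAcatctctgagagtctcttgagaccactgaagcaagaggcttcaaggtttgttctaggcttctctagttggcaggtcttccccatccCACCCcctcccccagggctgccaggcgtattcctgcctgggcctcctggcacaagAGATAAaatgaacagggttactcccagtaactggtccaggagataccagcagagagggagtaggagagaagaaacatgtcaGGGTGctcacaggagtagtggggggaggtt
SPTB: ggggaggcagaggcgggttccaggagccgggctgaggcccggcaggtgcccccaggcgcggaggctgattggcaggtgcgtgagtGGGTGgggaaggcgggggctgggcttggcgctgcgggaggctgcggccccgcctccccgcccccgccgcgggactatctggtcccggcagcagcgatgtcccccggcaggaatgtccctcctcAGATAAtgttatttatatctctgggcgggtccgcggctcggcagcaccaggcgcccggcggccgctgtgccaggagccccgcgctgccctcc
GYPC: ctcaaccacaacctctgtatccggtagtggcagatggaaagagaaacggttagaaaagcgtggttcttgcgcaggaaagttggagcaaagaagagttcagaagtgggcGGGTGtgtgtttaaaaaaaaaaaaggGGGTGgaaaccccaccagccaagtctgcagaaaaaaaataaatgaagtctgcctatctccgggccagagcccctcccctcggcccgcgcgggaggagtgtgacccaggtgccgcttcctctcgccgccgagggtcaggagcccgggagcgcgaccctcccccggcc
EPB42 held AGATAA 208 and 61 bases before the start, and SPTB 42 bases before it. None of the other 8 windows searched, among them the downstream start of SPTB and the windows of EPB41, GYPC, ADD2 and TMOD1, held these letters. Other forms of the GATA site were not searched, so these windows cannot be said to lack one. Over all 35116 windows of the table, 10.3% held AGATAA. The letters CACCC were in 7 of the 10 member windows and in 59.9% of all windows. These matches describe letters only, and binding was not measured.

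SLC4A1 (Entrez 6521, hg19 chromosome 17, 42325758 to 42345502, 20 exons in the deposited annotation) had 288 counts in DMSO and 7416 with cabozantinib. In scaled counts this was 11.2 and 299 CPM, 26.7-fold higher with an interval of 23.8 to 30.2. Its log2 ratio of 4.74 ranked 1 among the 12536 measured genes. Among genes with a mean of at least 5 CPM, the log2 ratios nearest to it were those of AQP1 (4.70), ESPN (4.16) and ARHGAP23 (3.57), a likeness that rests on 2 libraries.

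EPB42, a transglutaminase relative without enzyme activity that binds band 3, had 116 counts in DMSO and 888 with cabozantinib. This was 4.50 and 35.8 CPM, 7.93-fold higher (6.56 to 9.75), and rank 13 of all measured genes. It lies on hg19 chromosome 15 at 43489425 to 43513323, with 13 exons. ANK1, the ankyrin of red cells, was already abundant, with 8551 counts in DMSO and 13582 with cabozantinib, or 332 and 548 CPM. Its ratio was 1.65-fold (1.61 to 1.70). ANK1 spans 244 kb of hg19 chromosome 8, from 41510744 to 41754280, and its 46 exons were counted together, so its alternative starts are not resolved. The 3 genes of the ankyrin site were thus all higher, and the pair that was scarce in DMSO differed more than the abundant one.

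SPTB, beta spectrin of red cells, had 5066 counts in DMSO and 8870 with cabozantinib, or 197 and 358 CPM, 1.82-fold higher (1.76 to 1.89). It lies on hg19 chromosome 14 at 65213001 to 65289866.

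EPB41 (hg19 chromosome 1, 29213603 to 29446558) had the most counts of the members, 14295 in DMSO and 17191 with cabozantinib, or 555 and 694 CPM. The ratio of 1.25-fold (1.22 to 1.28) excluded no change but was short of 1.5-fold. GYPC (hg19 chromosome 2, 127413684 to 127454246), whose product carries the Gerbich blood group and anchors the EPB41 protein, had 6262 and 6841 counts, a ratio of 1.14-fold (1.10 to 1.18). MPP1, the scaffold that binds both proteins, had 10362 and 10950 counts and a ratio of 1.10-fold (1.07 to 1.13). The 3 genes of this junction were all within 1.5-fold of no change, and all were abundant in DMSO.

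At the filament ends, ADD2 (hg19 chromosome 2, 70889216 to 70995375), the beta subunit of adducin, had 2162 counts in DMSO and 4364 with cabozantinib, or 83.9 and 176 CPM, 2.10-fold higher (1.99 to 2.21). TMOD1 (hg19 chromosome 9, 100263462 to 100364025), which caps the slow-growing end of actin filaments, had 3199 and 5478 counts, or 124 and 221 CPM, 1.78-fold higher (1.70 to 1.86). Of the 3426 annotated exon bases of TMOD1, 1664 overlap exons of TSTD2 on the opposite strand. TSTD2 had 1545 counts in DMSO and 1148 with cabozantinib. As no source used here gives the strand setting of the counting, how reads of this stretch were assigned is not known. The level per kilobase of TMOD1 and its share with TMOD3, both given below, carry the same doubt. EPB41 shares 622 exon bases with TMEM200B, which had 6 and 4 counts. The exons of the other 6 members shared no base with an exon of another annotated gene. MIR486-1, a miRNA gene on the same strand, lies within ANK1 outside its annotated exons and had 4 and 9 counts.

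**Figure D1:**
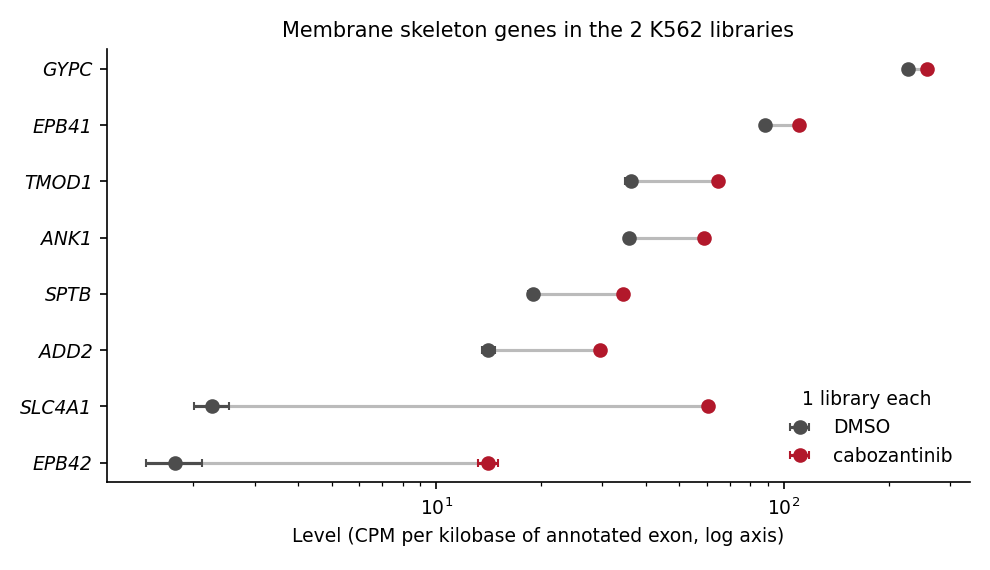
Level of each member in the DMSO and the cabozantinib library, in CPM per kilobase of annotated exon on a log axis. Points are single libraries and bars are exact 95% Poisson intervals of the count. SLC4A1 and EPB42 are the lowest members in DMSO, at 2.26 and 1.77, and SLC4A1 lies at 60.4 with cabozantinib.

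Levels of different genes were compared per kilobase of annotated exon. In DMSO the order was GYPC at 227 CPM per kb, EPB41 at 88.2, TMOD1 at 36.2, ANK1 at 35.8, SPTB at 18.9, ADD2 at 14.1, SLC4A1 at 2.26 and EPB42 at 1.77. The intervals of TMOD1 and ANK1 overlapped, as did those of SLC4A1 and EPB42. With cabozantinib SLC4A1 moved from place 7 to place 4, at 60.4 CPM per kb. It then stood between TMOD1 at 64.6 and ANK1 at 59.1, and its interval overlapped that of ANK1. The order of the other 7 among themselves was the same in both libraries. SLC4A1 held 0.532% of the members' summed level per kilobase in DMSO and 9.59% with cabozantinib. The plot of levels by library shows the span of the 8 genes narrowing from below. All members together made up 0.160% (0.158% to 0.161%) of the DMSO library and 0.253% (0.251% to 0.255%) of the cabozantinib library.

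**Figure D2:**
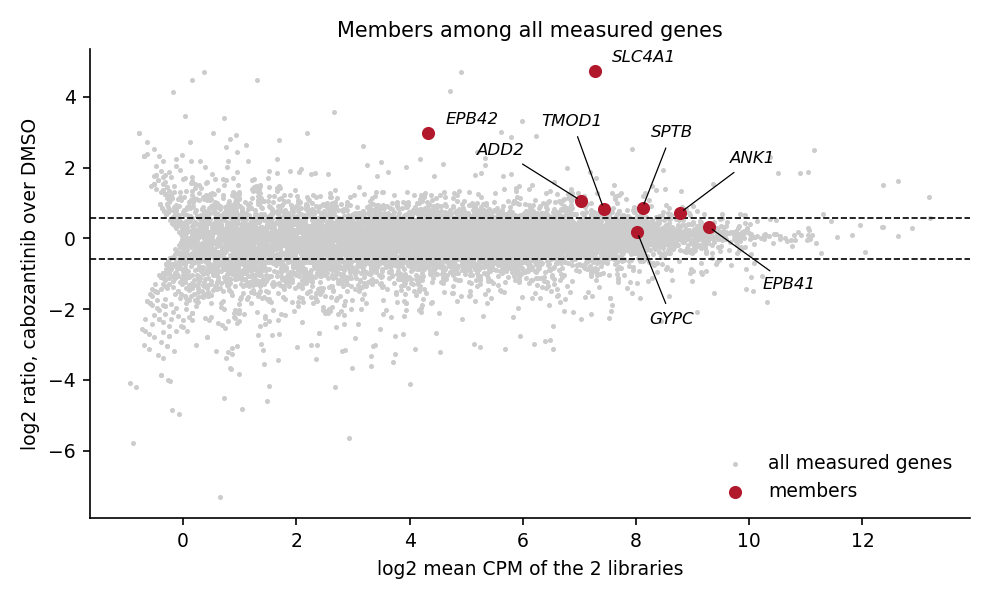
Log2 ratio of cabozantinib over DMSO against log2 mean CPM for all 12536 measured genes (grey) and the 8 members (red). Dashed lines mark 1.5-fold. SLC4A1 has the highest ratio, and EPB41 and GYPC lie between the lines.

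Other genes of the skeleton were read from a list of 11 partners, all of them measured. Of these, 2 were higher and 1 lower by 1.5-fold, against 8.15% and 12.3% of all measured genes, and the list's median log2 ratio was 0.07, or -0.012 under scaling by total counts. The higher partners were DMTN and ADD1. DMTN, dematin, bundles actin at the junction and went from 724 to 1819 counts, a log2 ratio of 1.39. ADD1, the alpha subunit of adducin, had a log2 ratio of 0.62, which dropped to 0.54 under scaling by total counts and to 0.58 without globin and mitochondrial genes, both short of the size required. ACTG1, a cytoplasmic actin, was 1.51-fold lower (1.44 to 1.58), while ACTB, the actin of the red cell skeleton, had a log2 ratio of 0.24. The tropomyosins TPM1 and TPM3, which run along the filaments, had log2 ratios of 0.27 and -0.19. CAPZA1 and CAPZB, the capping protein of the fast-growing end, had -0.10 and 0.07, and the sign for CAPZB turned under scaling by total counts.

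**Figure D3:**
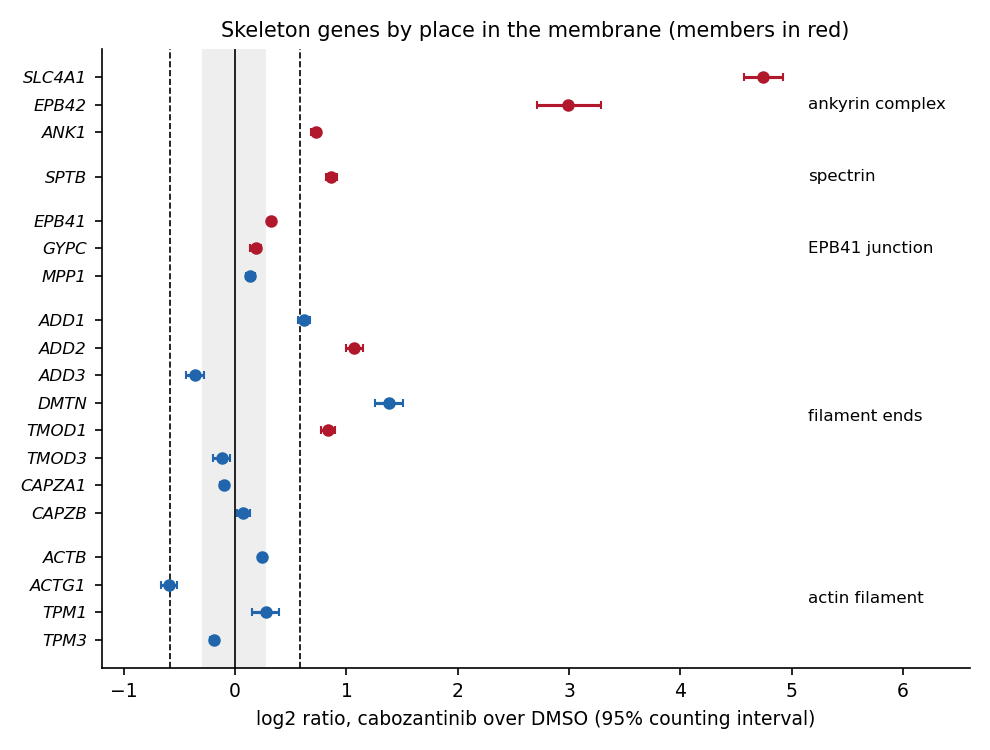
Log2 ratio of cabozantinib over DMSO for members (red) and skeleton partners (blue), grouped by place, with 95% counting intervals. Dashed lines mark 1.5-fold and the grey band is the middle range of all measured genes, from quartile -0.29 to quartile 0.27. The genes of the ankyrin site and SPTB lie right of the upper line, and EPB41, GYPC and MPP1 left of it.

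Of 19 genes for proteins bound to or neighbouring the band 3 and EPB41 sites in the membrane, 7 were higher and 1 lower. The shares over all measured genes were 8.15% higher and 12.3% lower. Their median log2 ratio was 0.29. The highest by the bound nearest no change were AQP1, the water channel, 25.9-fold higher (20.1 to 34.7), and the Rh antigen genes RHD and RHCE, 3.56-fold (3.20 to 3.98) and 3.49-fold (3.13 to 3.91). RHD and RHCE are near-identical and share reads, so each is uncertain alone. STOM, stomatin, was the lower gene, 1.52-fold (1.42 to 1.62), from 2400 to 1521 counts. RHAG, the Rh-associated glycoprotein that sits beside band 3, had the high level of 795 CPM in DMSO and 983 with cabozantinib, which is 0.31 on the log2 scale. CD47, which the Rh and band 3 assembly also carries, had a log2 ratio of 0.25. Of the cytoplasmic enzymes that bind the tail of band 3, GAPDH and ALDOA had log2 ratios of 0.08 and -0.14, and the sign for GAPDH turned under scaling by total counts. CA2, the cytosolic carbonic anhydrase, had 23 and 25 counts.

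Apart from GYPC, each member belongs to a group of related genes with wider use in other tissues, and these relatives were compared with it. For GYPC the list held other glycophorins, which share its name but not its sequence. The lists held 21 measured relatives, leaving out the red cell gene GYPB. Among them were the skeleton partners ADD1, ADD3 and TMOD3 and the glycophorin gene GYPE. Of the 21, 4 were higher and 4 lower, against 8.15% and 12.3% of all measured genes. The relatives had a median log2 ratio of -0.06. The lower relatives were EPB41L2, SPTAN1, ANK3 and SPTBN1, which serve the same roles under the membranes of other cells. EPB41L2 went from 3658 to 1298 counts, 2.71-fold lower (2.54 to 2.89). SPTAN1, a spectrin of most tissues, went from 635 to 267 counts, 2.28-fold lower (1.98 to 2.65). ANK3, ankyrin-G, went from 715 to 340 counts, 2.02-fold lower (1.77 to 2.31), and SPTBN1, the general beta spectrin, from 3414 to 1846 counts, 1.78-fold lower (1.68 to 1.88). Each was thus lower in the group whose red cell member, EPB41 apart, was higher by 1.5-fold. The higher relatives were ADD1 and the scarce genes LMOD1 (42 and 85 counts), EPB41L4B (18 and 39) and TGM1 (39 and 64).

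Each member except GYPC was set against the relative with the most counts in DMSO, and ADD2 against both relatives. The member's share of the pair's counts was read within each library, where scaling plays no part. The pairs were chosen after the values were seen. SPTB held 59.7% (58.7% to 60.8%) of its summed counts with SPTBN1 in DMSO and 82.8% (82.0% to 83.5%) with cabozantinib. EPB41 held 79.6% of the pair with EPB41L2 in DMSO and 93.0% with cabozantinib. ANK1 went from 92.3% to 97.6% of the pair with ANK3. In every one of these 3 pairs the exact intervals of the 2 libraries did not overlap.

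SLC4A1 held 3.02% (2.69% to 3.39%) of the counts it shared with SLC4A2, the anion exchanger of most tissues, in DMSO and 43.3% (42.6% to 44.1%) with cabozantinib. SLC4A2 itself had 9236 and 9702 counts, a log2 ratio of 0.13, so it was still the more abundant exchanger in both libraries. Per kilobase, SLC4A2 had 60.1% of the SLC4 family's level with cabozantinib and SLC4A1 38.4%. SLC4A7, a sodium bicarbonate cotransporter, had a log2 ratio of -0.28 and SLC4A11 one of -0.37, on 46 and 34 counts. No count of SLC4A9 or SLC4A10 was found, and a count of 0 allows up to 3 per library. EPB42 held 1.73% of its pair with TGM2, tissue transglutaminase, in DMSO and 10.7% with cabozantinib, while TGM2 had a log2 ratio of 0.23. TGM5, the gene next to EPB42, had 0 counts throughout, as did TGM4, TGM6, TGM7 and F13A1.

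**Figure D4:**
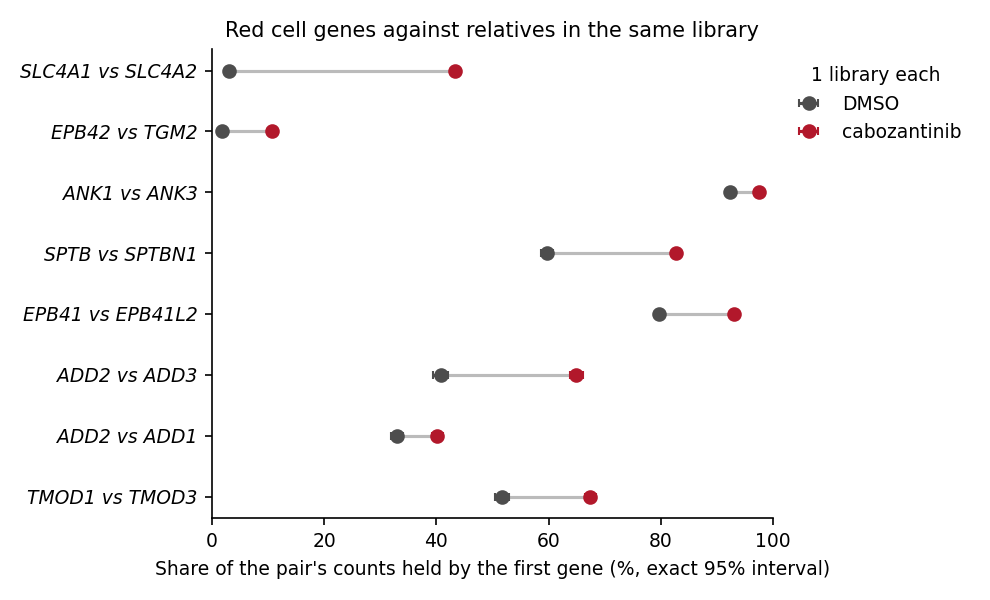
Share of the summed counts of 2 genes that the first gene holds, in the DMSO and the cabozantinib library, with exact 95% intervals. The share is higher with cabozantinib in each of the 8 pairs shown, by 5.27 percentage points for ANK1 with ANK3 and by 40.3 for SLC4A1 with SLC4A2. GYPC was not paired, and the pairs were chosen after the values were seen.

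Among the adducins, the share of ADD2 in its pair with ADD3 was 40.8% (39.4% to 42.1%) in DMSO and 65.0% (63.8% to 66.1%) with cabozantinib. ADD3, the gamma subunit of most tissues, had a log2 ratio of -0.36. Against ADD1, which pairs with ADD2 in the red cell, the share was 33.0% and 40.2%. TMOD1 held 51.7% (50.4% to 52.9%) of the pair with TMOD3 in DMSO and 67.5% (66.4% to 68.5%) with cabozantinib. TMOD3, the ubiquitous tropomodulin, had a log2 ratio of -0.12, and TMOD2, the neuronal one, -0.44. GYPB was 2.83-fold higher and GYPE had a log2 ratio of 0.14, against 0.18 for GYPC. Of the summed level per kilobase of these glycophorin genes, GYPC held 60.4% in DMSO and a smaller 47.4% with cabozantinib. GYPB held 18.8% and 36.8%. GYPB and GYPE are near-identical in part, so reads may be split between them.

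The nearest protein-coding genes on each side of the members were read for change along the chromosome. Of these 16 genes, 8 were measured, 2 of them higher and 0 lower, against 8.15% and 12.3% of all measured genes. The median log2 ratio of the 8 measured neighbours was 0.14. UBTF, a factor of RNA polymerase I that lies 27.5 kb from SLC4A1, went from 3219 to 6657 counts, a log2 ratio of 1.11. RUNDC3A, on the other side of SLC4A1, had 1 count in DMSO and 14 with cabozantinib, below the level called measured. SRSF4, a splicing factor 27.7 kb from EPB41, had a log2 ratio of 0.88, larger than the 0.32 of EPB41. CCNDBP1, which lies beside EPB42 and is the closest of the 16 to its member, had 2480 and 2357 counts and a log2 ratio of -0.02. KAT6A, 32.7 kb from ANK1, had 0.04, and CHURC1, 91.3 kb from SPTB, had -0.40. TDRD7 and NCBP1 on the sides of TMOD1 had 0.03 and 0.24. BIN1, as far as 351 kb from GYPC, had 0.32 on 49 and 59 counts. Both neighbours of ADD2, TGFA and FIGLA, had 0 counts.

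**Figure D5:**
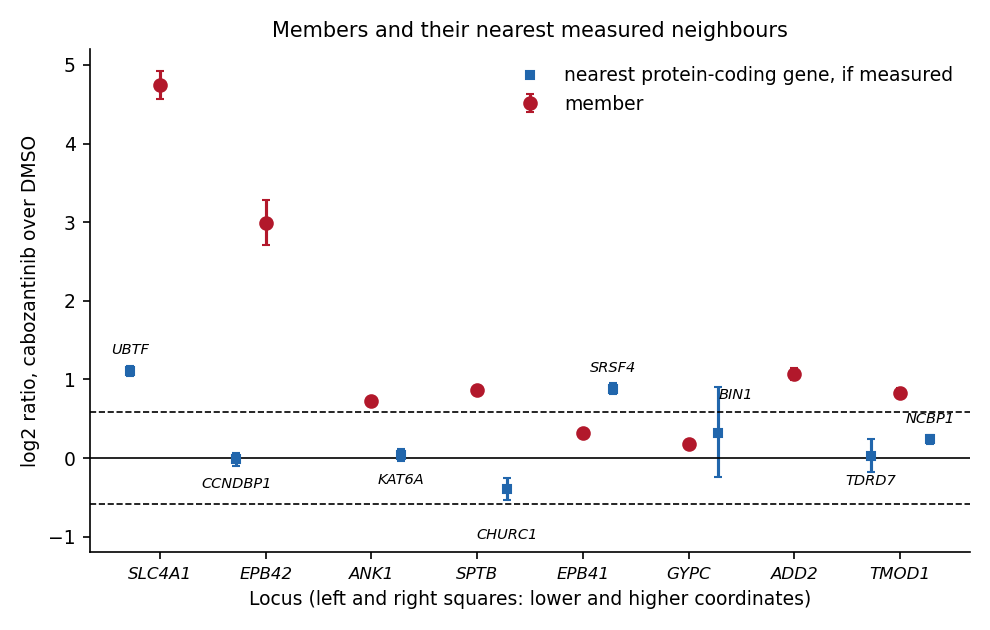
Log2 ratio of cabozantinib over DMSO for each member (red circles) and for its nearest protein-coding gene on each side where that gene was measured (blue squares), with 95% counting intervals. Dashed lines mark 1.5-fold. UBTF beside SLC4A1 and SRSF4 beside EPB41 are the neighbours above the upper line.

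Of the 17392 genes in the authors' deposited table, 1.39% had a fold above 1 together with a probability of being differentially expressed of 0.95 or more. SLC4A1, EPB42 and ADD2 were the members among them in the authors' deposited table. The probability in the authors' deposited table was 0.815 for SPTB, 0.746 for TMOD1, 0.273 for ANK1, 0.00418 for EPB41 and 0.0030 for GYPC. The series holds 1 library per group, so these probabilities were also reached without replicates.

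The DMSO library held 25025243 counts and the cabozantinib library 25505289. All 8 erythroid markers were measured in both libraries, and 7 were higher with cabozantinib. GATA1, with a log2 ratio of 0.39, was within 1.5-fold. By the same rule 8.15% of all measured genes were higher and 12.3% lower. The markers' summed level was 13104 CPM in DMSO and 37110.3 CPM with cabozantinib. Of this, HBG1 and HBG2 made up 3110 and 5708 CPM in DMSO, and 9511 and 12751 CPM with cabozantinib. Of 8 megakaryocyte markers 3 were measured, 2 of them higher and ITGA2B lower, with a sum of 26.1 and 123 CPM, of which TUBB1 made up 11.6 and 115 CPM. No count was found for GP9, GP1BA, GP1BB and PF4. Of 7 granulocyte and monocyte markers 4 were measured, 0 higher and 3 lower (CD33, SPI1 and LYZ). CEBPA, on 27 and 13 counts, was also lower under the other scalings. The sum of this list was 58.6 CPM in DMSO and 18.9 CPM with cabozantinib. MPO and ELANE had 0 counts in both. Of 5 lymphocyte markers 1 was measured, CD3D, which was lower, and the sum of the list was 9.93 CPM in DMSO and 2.54 CPM with cabozantinib. The part of these shifts in the members' values was not tested.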

How the data were processed

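Per the file headers, the authors aligned reads with Rsubread to hg19 and deposited raw counts, 1 whole number per Entrez gene and library. GRCh37 and hg19 are the builds in the submitters' processing notes. Strand setting, multi-mapping rule and aligner version: not given in the sources used here. The authors' deposited comparison holds posterior probabilities, a score from 0 to 1 per gene, and fold ratios, whose direction was read from the labelled counts. Its 4 columns of values per library name no sample and were not used. Counts were scaled with TMM factors (1.03 for DMSO, 0.971 for cabozantinib; edgeR 4.0.16, R 4.3.3). The log2 ratio used counts plus a pseudocount of 0.5. Intervals are exact Clopper-Pearson 95% intervals of the ratio of 2 counts or of a share, and exact Poisson intervals of a count. They measure counting error only, and reads without molecular identifiers are not independent molecules. Per-kilobase levels divide CPM by the annotated exon length.

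The members and lists were chosen with earlier results of these data known. Some genes are not reported here and were left out of the lists. Named were all members, up to 3 called genes each way per partner and marker list, measured relatives, nearest neighbours and the 3 genes nearest SLC4A1 in log2 ratio, and further list members are given as examples by their role in the complex. Alternatives covered scaling (upper quartile, total counts, size factors of DESeq2 1.42.0, totals without globin and mitochondrial genes), pseudocount, filter, size threshold, the authors' deposited fold, a length trend and counts without division by length. The scripts were tested on simulated counts. Calculations used Python 3.11.15, numpy 2.4.6, scipy 1.17.1 and pandas 2.3.3. Position of members is hg19, counted from 1, and that of promoter windows GRCh38.p14.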

Additional observations from a re-analysis of the deposited data

How the results depend on the processing

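At a threshold of 2-fold the count of higher members was 3 in place of 6, and under scaling by total counts the members' median log2 ratio was 0.76 in place of 0.85. Total counts shifted every log2 ratio by -0.08, which moved ANK1, SPTB, EPB41, GYPC, ADD2 and TMOD1 beyond their counting intervals, and leaving out globin and mitochondrial genes did so for EPB41. Total counts also turned the median log2 ratio of the skeleton partners from 0.07 to -0.012 and, like totals without globin and mitochondrial genes and the 2-fold threshold, left 1 of them higher in place of 2. Of 72 member ratios under alternatives, 72 were above 0, from 0.10 to 4.75, and 7 lay outside the counting interval of the reported value. The 72 include the filter settings, which cannot change a ratio and so repeat the reported value. Shares of a family moved beyond counting error in 15 of 16 cases when counts were not divided by length. No paired analysis was possible because each group holds 1 library. Depth limits SLC4A1 and EPB42 in DMSO, whose counts of 288 and 116 set the width of their intervals.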
